A study of Mus musculus with 98 samples.

Results

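CapFb1a is a subtype of the CapFb1 capsular fibroblasts among the non-epithelial thymic stroma (NETS) of the mouse, beside the subtypes CapFb1b and CapFb1c. Its members were the cells that carry this label in the deposited annotation of the age series, and they numbered 2378 of 36208 cells. CapFb1b and CapFb1c held 3603 and 1227 cells, and the annotation has 19 labels in all. The cells came from WT C57BL/6 mice and were sorted as live Ter119-CD45-EpCAM- cells before capture on the 10X platform, which counts RNA molecules by unique molecular identifiers (UMIs). There was 1 library at E12.5 and 1 at E13.5, each pooled from 2 litters, and there were 2 libraries each at E16.5, birth (P0) and 4 weeks of age (W4), for which 2 thymi per age were sorted. Every library was from untreated WT mice. For thymic digests of adult mice the study also describes depletion with anti-CD45 microbeads before staining, and it names no such step for younger mice. Libraries of P0 and W4 may thus differ in preparation as well as in age, and the part of this in the steps from P0 to W4 was not tested. A second set of libraries, RNA sequenced in bulk from sorted gp38+CD26- and gp38+CD26+ cells at P0 and W4 (6 per age and gate), gave a readout in samples that the labels did not use.

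The thymus is enclosed in a capsule of connective tissue, from which fibroblasts reach into the organ along its septa and vessels. Capsular fibroblasts lay down collagens, proteoglycans and elastic microfibrils, and thymic mesenchyme is a known source of growth factors, such as fibroblast growth factors, for the thymic epithelium. In the embryo this mesenchyme derives largely from the neural crest and carries transcription factors of the pharyngeal arches, whereas adult capsular fibroblasts share genes with the fibroblasts of the outer coat of vessels in other organs.

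CapFb1a cells contributed 1270847 to 8028175 UMIs per library, with a median of 10302 to 14792 UMIs per cell. Levels are given as CPM, a gene's UMIs per 1000000 UMIs of the CapFb1a cells of a library. Of all cells, 310 shared a barcode with a cell of another library, 18 of them CapFb1a cells. Some libraries stood apart in genes of other cell types or of sex. The erythroid list, led by haemoglobin genes, summed to 1.75 CPM at E12.5, 11.5 at E13.5, 5905 and 96.9 at E16.5, 119.8 and 200.3 at P0 and 701 and 8413 at W4. In the first E16.5 library 98.9% of the UMIs of *Hbb-bs* lay in 5 of 249 cells, and in the second W4 library 94.4% lay in 5 of 176 cells. The chondrogenic list summed to 228 CPM at E12.5, 112.98 at E13.5, 22.04 and 16.9 at E16.5, 506 and 24.2 at P0 and 18.9 and 5.02 at W4, and in the first P0 library 75.8% of the UMIs of its member *Col2a1* lay in 1 of 171 cells. The muscle list summed to 24.8 CPM at E12.5 and at most 1.30 CPM in the others, and the parathyroid list to 15.9 CPM at E13.5 and at most 1.75 CPM in the others. The Y-linked gene *Ddx3y* had no UMI at E13.5 and in the first P0 library and 19.4 to 54.97 CPM in the others, so the mix of sexes differed between libraries. All p-values over ages measure the spread between libraries of an age, which may be technical, and E12.5 and E13.5 were assumed to vary like the replicated ages.

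The label was first checked against the 4 genes given as its markers, *Itm2a* (an integral membrane protein of the BRICHOS family), *Clec3b* (the plasminogen-binding protein tetranectin), *Svep1* (a large matrix protein that binds integrins) and *Dpep1* (a membrane dipeptidase). On mm10, the mouse build in the submitters' processing notes, they lie on chromosome X from 107397195 to 107403360 (*Itm2a*), chromosome 9 from 123150946 to 123157432 (*Clec3b*), chromosome 4 from 58042796 to 58206596 (*Svep1*) and chromosome 8 from 123186235 to 123201812 (*Dpep1*). In CapFb1a, *Itm2a* was at 452 CPM at E12.5, 660.4 at E13.5, 5258 and 5334 at E16.5, 4681 and 4777 at P0 and 841 and 879 at W4. It was thus found at every age, lowest in the 2 earliest libraries and about equally high in all 4 libraries of E16.5 and P0. *Clec3b* was at 0 CPM at E12.5, 0.125 at E13.5, 329.8 and 361 at E16.5, 730.3 and 663 at P0 and 2048 and 2013 at W4. The 0 at E12.5 allows up to 0.525 CPM, the level of 3 UMIs, by counting error alone, and at E13.5 a single UMI was found.

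*Svep1* was at 5.42 CPM at E12.5, 6.23 at E13.5, 70.2 and 68.4 at E16.5, 83.8 and 75.0 at P0 and 484 and 501 at W4. *Dpep1* was at 2.27 CPM at E12.5, 1.37 at E13.5, 116 and 123 at E16.5, 116 and 160.7 at P0 and 875 and 872 at W4. At E12.5 and E13.5, which held 442 and 744 of the members, *Itm2a* was therefore the only marker above 10 CPM. At E16.5 and P0 all 4 were well above the early libraries, and at W4 3 of them were at their highest while *Itm2a* had come down to near its level at E13.5. None of the 4 was particular to the label. Labels were averaged over the libraries in which they had at least 10 cells, which for CapFb4 were 7, without E12.5. *Itm2a* averaged 2860.2 ± 2315 CPM (SD) in CapFb1a and 2723 ± 2361 CPM in CapFb4, or 3204 CPM in CapFb1a over the same 7 libraries, and CapFb1a ranked first of the labels in 3 of 8 libraries. *Clec3b* averaged 768 ± 823 CPM in CapFb1a and 1554 ± 999 CPM in CapFb4, or 878 CPM in CapFb1a over those 7. *Svep1* averaged 162 ± 206 CPM in CapFb1a and 174.9 ± 202 CPM in CapFb1c, and *Dpep1* 283 ± 369 CPM in CapFb1a and 312 ± 478 CPM in CapFb1b. These SDs span ages as well as libraries, and since the labels were made from the same counts the levels are given without a test. The pan-fibroblast list (*Pdgfra*, *Dcn*, *Lum* and others) summed to 3746 CPM at E12.5, 9544 at E13.5, 27401 and 27648 at E16.5, 35449 and 28924 at P0 and 56053 and 55610.0 at W4. It averaged 4248 to 7178 CPM over the libraries of the endothelial labels, 7024 in pericytes and 5303 in vascular smooth muscle. The E12.5 sum lay below these averages and so does not by itself set CapFb1a apart from those labels. The averages span all ages, however, and the list rose with age in CapFb1a, so the comparison is not one of like ages. The endothelial list, in contrast, summed to 41.8 CPM at E12.5, 52.7 at E13.5, 41.4 and 34.2 at E16.5, 26.9 and 24.2 at P0 and 25.97 and 24.7 at W4.

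The first question was how the share of these cells changed as the thymus grew. CapFb1a made up 22.1% at E12.5, 13.2 at E13.5, 4.32 and 4.58 at E16.5, 3.65 and 3.61 at P0 and 3.43 and 5.39 at W4 of the NETS cells. The libraries of E12.5 (95% exact binomial interval 20.33 to 24.02, covering counting error only) and E13.5 (12.4 to 14.2) were the only ones of the 8 above 10%, and the 6 later libraries lay between 3.43 and 5.39%. The fall from E12.5 and E13.5 to E16.5 was -1.94 ± 0.26 (SE) on the log2 scale (edgeR's quasi-likelihood test on cells per label, adjusted p = 0.00137 over the 19 labels). The share did not pass the test from E16.5 to P0 (log2 change -0.30 ± 0.25, adjusted p = 0.46) or from P0 to W4 (0.28 ± 0.25, adjusted p = 0.455), and the 2 W4 libraries differed, at 3.43% (2.76 to 4.21) and 5.39% (4.64 to 6.22). Without the second W4 library the last step was -0.08 and without the first 0.57. The 4 embryonic libraries averaged 11.1 ± 8.46% (SD) and the 4 postnatal ones 4.02 ± 0.917%, and an exact two-sided permutation test gave p = 0.143, where 0.0286 is the smallest p that 4 against 4 libraries allow.

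Within the CapFb1 cells alone, CapFb1a held 88.9% at E12.5, 77.1 at E13.5, 20.3 and 22.3 at E16.5, 16.9 and 16.1 at P0 and 25.9 and 33.7 at W4. Against this total the share fell from E16.5 to P0 by 0.38 on the log2 scale (adjusted p = 0.0295) and rose from P0 to W4 by 0.90 (adjusted p = 0.000347). This fit held CapFb1a, CapFb1b and CapFb1c only, and p was adjusted over these labels. Their cells sum to the total, so the labels do not vary independently, which the test does not take into account. The fit was not repeated with a library left out. Over the latter step CapFb1b went from 13.4 and 14.3% of NETS at P0 to 5.85 and 6.67% at W4. CapFb1a was therefore the main CapFb1 label at E12.5 and E13.5 and held fewer cells than CapFb1b in each of the 6 later libraries. Shares of captured cells depend on the other labels and on sorting, and numbers of cells per thymus were not measured here.

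**Figure D1:**
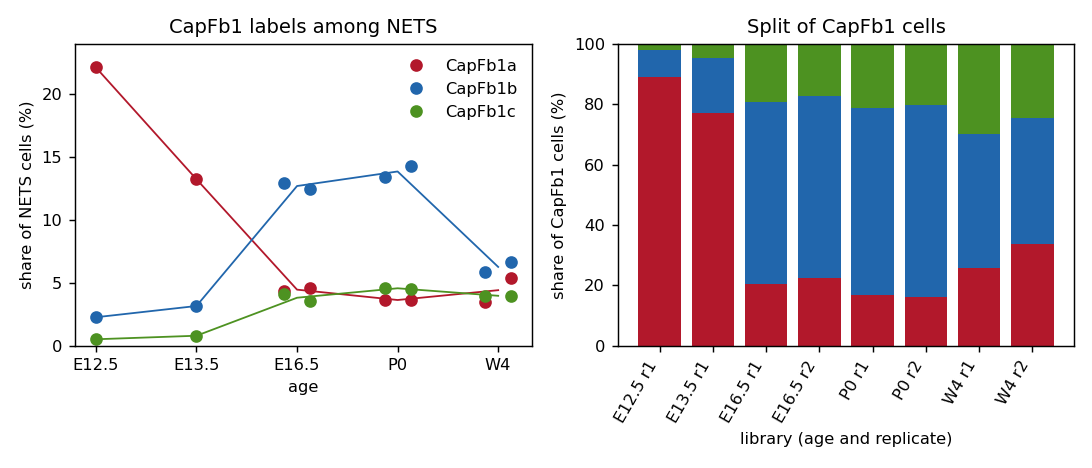
Left, share of NETS cells (percent) with the label CapFb1a (red), CapFb1b (blue) and CapFb1c (green) at each age, 1 point per library and lines through the means of each age. Right, the split of all CapFb1 cells of a library into the 3 labels (percent). CapFb1a falls from 22.1% at E12.5 to 3.43 to 5.39% from E16.5 on, and holds 88.9% of CapFb1 cells at E12.5 and 16.1 to 33.7% from E16.5 on.

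Genes that set CapFb1a apart from the other 18 labels did so by small margins. Among the 10 genes of at least 50 CPM in which CapFb1a ranked first in the most libraries, the widest margin between means over each label's own libraries was that of *Smoc2* (a matricellular relative of SPARC), 1.33-fold over the next label on average and first in 5 of 8 libraries. *C1qtnf2* (a secreted protein of the C1q and TNF family) ranked first in 6 libraries and was 1.28-fold above the next label, MedFb2b, which had no mean at E12.5 and E13.5, or 1.69-fold over the 6 libraries of both. *Lama2* (a laminin alpha chain of basement membranes) ranked first in 6 libraries with 1.17-fold, and *Adam33* (a membrane metalloprotease) in 5 with 1.08-fold. *Abca8a* (a lipid transporter), *Hic1* (a transcriptional repressor found in quiescent mesenchymal progenitors) and *Zim1* (an imprinted zinc finger gene) each ranked first in 4 libraries, with folds of 1.18, 1.12 and 1.11. The 10 were completed by *Col4a3bp*, *Ift27* and *Arl5a*, with folds of 1.16, 1.09 and 1.13. The next label of *Arl5a*, NCC, had 6 libraries, over which the fold was 0.987. These ranks describe the labels and were not tested.

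Compared with the nearest subtypes, the ratios of the genes furthest above were smaller than those of the genes furthest below. Of 3416 genes with at least 50 CPM on average, 6.91 percent were higher in CapFb1a than the mean of CapFb1b and CapFb1c in all 8 libraries and 4.71 percent were lower in all 8. Of these, 0 genes were higher by more than 2-fold in every library and 7 were lower by that much. The labels were made from these same counts across libraries, so the ratios describe the labels and were not tested. The genes above were led by *Pi16* (a peptidase inhibitor typical of adventitial fibroblasts), with a median log2 ratio of 0.95 (range 0.30 to 1.74), highest at E16.5 and P0. *Pi16* was low in CapFb1a at E12.5 and E13.5, so its sign there rests on few UMIs and on the 1 CPM added to both sides. At E12.5 CapFb1b had 45 cells and CapFb1c 10. *Tgfbi* (a matrix protein induced by TGF-beta) had a median log2 ratio of 0.85 (range 0.17 to 1.37), *Smoc2* 0.81 (0.66 to 1.16), *Ccnd1* (cyclin D1) 0.79 (0.10 to 1.49) and *Mfap5* (a microfibril protein) 0.73 (0.00 to 0.99). *Sema3c* (a semaphorin), *Arap1* (a regulator of small GTPases) and *Ptgis* (prostacyclin synthase) followed at 0.66, 0.63 and 0.61.

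The genes furthest below were led by *Cxcl10*, which was near the floor in CapFb1a at E12.5. *Cxcl10* (a chemokine induced by interferon) had a median log2 ratio of -2.14 (range -3.62 to -0.25), *Ier3* (an immediate-early gene) -1.95 (-2.68 to -0.44), *Gadd45g* (induced by stress) -1.94 (-3.43 to -0.23) and *Atf3* (a stress-induced transcription factor) -1.77 (-4.24 to -0.58). *Mt1* (a metallothionein), *Irf1* (a transcription factor of the interferon response), *Zfp36* (an RNA decay factor) and *Arid5a* (an RNA-binding protein) had medians of -1.74, -1.70, -1.67 and -1.67. The list of 22 immediate-early genes summed to 6056 CPM at E12.5, 8795 at E13.5, 6715 and 6478 at E16.5, 15960.0 and 14584 at P0 and 8359.8 and 10190.0 at W4 in CapFb1a. In CapFb1b it summed to 11190.0 CPM at E12.5, 15898 at E13.5, 18854 and 19263 at E16.5, 35886 and 27947 at P0 and 23794 and 23974 at W4. In CapFb1c it summed to 9901 CPM at E12.5, 10715 at E13.5, 13803 and 15253 at E16.5, 36697 and 31575 at P0 and 27574 and 27159 at W4. CapFb1a was lowest of the 3 in each of the 8 libraries. These genes are known to respond to tissue dissociation, and the part of cell preparation in these levels was not tested. The labels were made from these same counts across libraries, so the like order in all 8 libraries is not independent support for a difference.

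**Figure D2:**
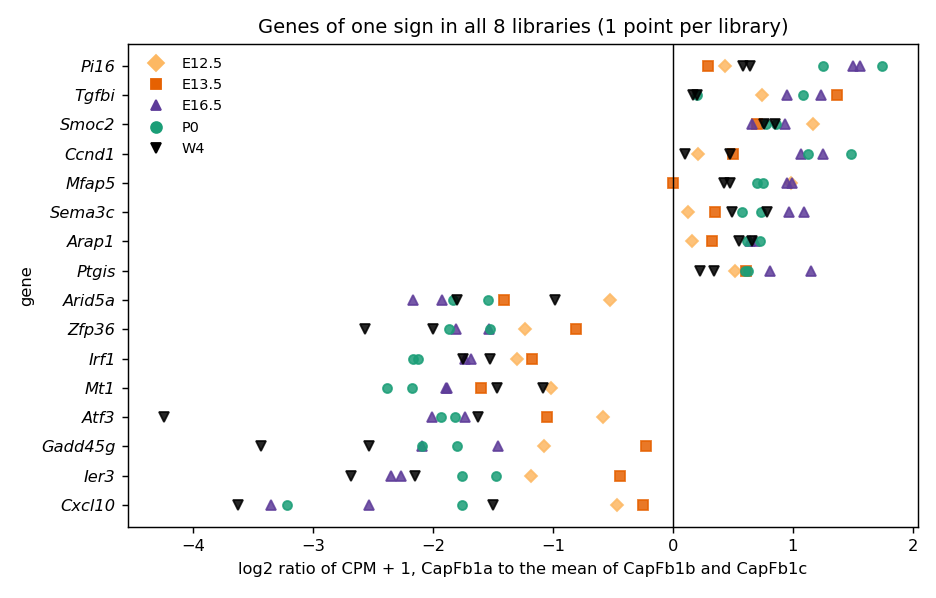
Log2 ratio of the level in CapFb1a to the mean of CapFb1b and CapFb1c in the same library (x axis, 1 CPM added to both), for the 8 genes highest and the 8 lowest by the median of 8 libraries among genes of 1 sign in all libraries; each point is a library, coloured by age. Among the genes above 0, Smoc2 has a narrow spread (0.66 to 1.16) and Pi16 and Ccnd1 have wider ones. Below 0, Atf3 lies between -4.24 and -0.58. The labels were made from these same counts.

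Of 12513 genes tested on UMIs summed over the CapFb1a cells of each library, 8618 (68.9 percent) changed over the 5 ages (edgeR's quasi-likelihood test with Benjamini-Hochberg adjustment over all genes). With DESeq2 5392 did. From E12.5 and E13.5 to E16.5, 3365 genes rose (26.9 percent) and 2964 fell (23.7 percent). From E16.5 to P0, 628 rose (5.02 percent) and 523 fell (4.18 percent), and from P0 to W4, 1942 rose (15.5 percent) and 1831 fell (14.6 percent). These shares are the background for every count of genes below. Log2 changes were fitted with TMM scaling, which sets most genes to no change, whereas CPM uses library totals. With library totals alone, 2273 genes rose and 4821 fell at the first step, 790 and 334 at the second and 1704 and 2240 at the third, and the median gene then moved by -0.28, 0.07 and -0.10 against 0.00, 0.01 and -0.02 with TMM. Without the second E16.5 library 4142 genes passed at the first step, without the second W4 library 2323 at the third, and without the first or the second E16.5 library 16.1 and 14.6% as many genes as above at the second. The labels were assigned across ages from the same counts, and their part in these changes was not tested.

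At the first step, from E12.5 and E13.5 to E16.5, several genes that CapFb1a held at E12.5 and E13.5 had few or no UMIs left. *Nnat* (neuronatin, an imprinted proteolipid) was at 1250.4 CPM at E12.5, 854 at E13.5, 1.76 and 0.950 at E16.5, 1.74 and 1.15 at P0 and 0 and 0.386 at W4 (log2 change -9.30 ± 0.21, adjusted p = 2.54e-14, where ± gives the SE). *Adamts18* (a secreted metalloprotease) was at 167.9 CPM at E12.5, 147 at E13.5, 0 and 0 at E16.5, 0.868 and 0 at P0 and 0.787 and 1.54 at W4, at least 396-fold lower at E16.5, where no UMI was found. *Pcp4* (a calmodulin-binding peptide) went from 86.6 and 37.9 CPM to 0 UMIs at E16.5, at least 147.5-fold lower. *Otor* (otoraplin, known from cartilage and the inner ear) went from 123 and 24.04 CPM to 0 UMIs, at least 166-fold lower. For all 4 the early libraries stood far above the E16.5 libraries, and no later library came near the early level.

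The neurofilament genes *Nefl* and *Nefm*, best known from neurons, were at 66.5 and 109 CPM and at 121 and 174.9 CPM at E12.5 and E13.5, and 1 and 2 UMIs of them were left at E16.5. They were not particular to CapFb1a: the median of the other labels in those 2 libraries was 43.5 and 73.6 CPM for *Nefl*, 89.0 and 130.2 CPM for *Nefm* and 1032.9 and 422.7 CPM for *Nnat*. RNA from other cells in the droplets was not measured, and its part in these levels was not tested. A more abundant gene, *Igfbp5* (an IGF-binding protein), also fell at this step but stayed present, at 1585 CPM at E12.5, 1042 at E13.5, 50.3 and 36.8 at E16.5, 98.6 and 67.7 at P0 and 120.4 and 78.4 at W4 (log2 change -4.61 ± 0.20, adjusted p = 3.41e-11).

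Other genes appeared at the same step. *Clec3b* was higher at E16.5 by a ratio of 4768-fold with a counting interval of 856 to 188340.0, from its single early UMI. *Dpt* (dermatopontin, a collagen-binding matrix protein) was at 0 CPM at E12.5, 0.374 at E13.5, 78.5 and 109 at E16.5, 170.2 and 61.1 at P0 and 948 and 1034 at W4, a ratio of 436-fold with a counting interval of 149.3 to 2116 at E16.5 from 3 early UMIs. *Hsd11b1* (which activates glucocorticoids) was at 0 CPM at E12.5, 0.125 at E13.5, 54.1 and 61.7 at E16.5, 72.5 and 84.2 at P0 and 819 and 833 at W4, a ratio of 802-fold with a counting interval of 143.9 to 31663 from 1 early UMI. *AW112010* (a transcript known from interferon responses) was at 0 CPM at E12.5, 0 at E13.5, 72.0 and 86.7 at E16.5, 54.3 and 73.8 at P0 and 133.8 and 138.7 at W4, at least 367-fold higher at E16.5. These 4 genes were thus at or near 0 in the 2 earliest libraries and present in all 6 later ones. *Hbb-bs* and *Hbb-bt*, near-identical haemoglobin genes, also rose by the same rule. *Hbb-bs* rose by 12.71 on the log2 scale, or by 7.81 without the E16.5 library in which 5 cells held most of its UMIs, and *Hbb-bt* no longer passed the test without that library (adjusted p = 0.194).

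**Figure D3:**
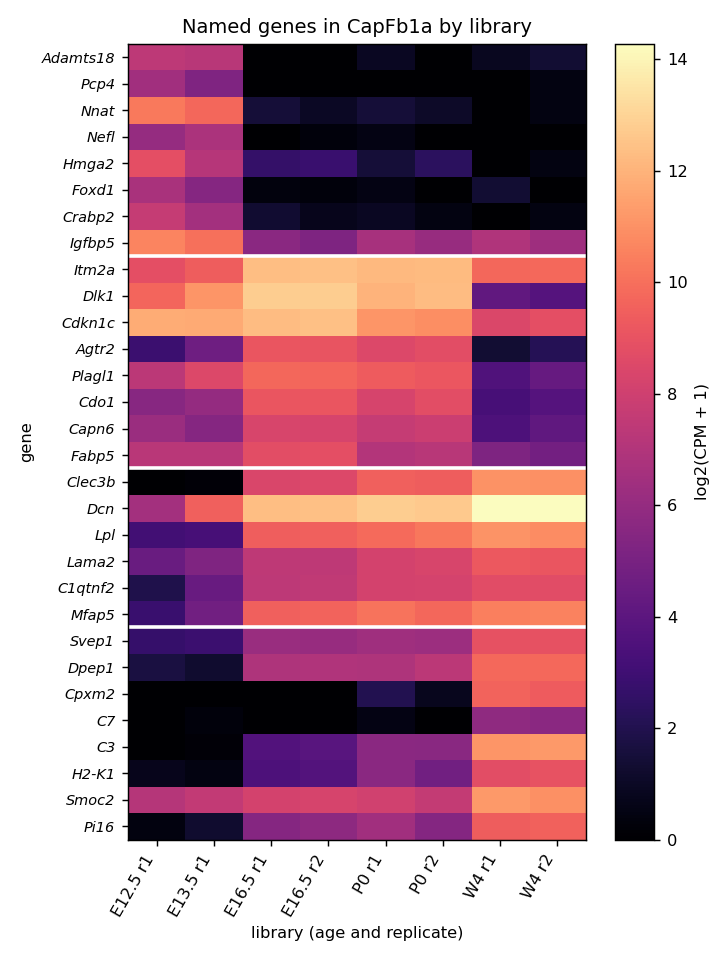
Level of 30 genes named in the text, as log2(CPM + 1), in the CapFb1a cells of each library (columns, by age and replicate). White lines separate genes high at E12.5 and E13.5, highest at E16.5, up from E16.5 on, and highest at W4. Of those highest at E16.5, Cdkn1c and Fabp5 were lower at P0 than at E12.5 and E13.5. The grouping was made from these values.

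Many matrix genes rose at this step. Of 8 fibrillar collagens tested, 7 rose and 0 fell (median log2 change 2.44, against 0.00 over all genes). *Col1a1* was at 637 CPM at E12.5, 1501 at E13.5, 4814 and 4649 at E16.5, 6177 and 4309.5 at P0 and 6964 and 7022 at W4 (log2 change 2.56 ± 0.12, adjusted p = 7.92e-11). *Col3a1* was at 898 CPM at E12.5, 3126 at E13.5, 8340.1 and 8537 at E16.5, 11927 and 9294 at P0 and 15977 and 15478 at W4 (log2 change 2.62 ± 0.09, adjusted p = 2.01e-12). Both were higher in the E13.5 than in the E12.5 library, and the 6 later libraries were above both. Of 12 small proteoglycans and related genes, 10 rose and 0 fell (median 3.89). Among them *Dcn* (decorin, which binds collagen fibrils) was at 88.1 CPM at E12.5, 734 at E13.5, 5292 and 5414 at E16.5, 7051 and 6681 at P0 and 19806 and 19486 at W4 (log2 change 4.68 ± 0.07, adjusted p = 5.87e-16), and it rose at each of the 3 steps. Of 11 other collagens 6 rose and 3 fell (median 0.91).

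Of 15 basement membrane genes 12 rose and 2 fell. *Col15a1* (type XV collagen, which links basement membranes to the matrix) was at 0.350 CPM at E12.5, 3.61 at E13.5, 294 and 296 at E16.5, 510.2 and 550.1 at P0 and 1224 and 1198 at W4 (log2 change 8.24 ± 0.17, adjusted p = 1.27e-14). *Lama2* was at 21.9 CPM at E12.5, 37.7 at E13.5, 175.2 and 172.4 at E16.5, 284 and 322 at P0 and 599.6 and 549.6 at W4 (log2 change 2.88 ± 0.12, adjusted p = 2.17e-11). Elastic fibre and microfibril genes counted 15 higher and 2 lower of 19. Among them *Mfap5* was at 6.12 CPM at E12.5, 25.8 at E13.5, 717 and 793 at E16.5, 1132 and 848 at P0 and 1411 and 1505 at W4 (log2 change 6.19 ± 0.17, adjusted p = 1.26e-13). Collagen-processing genes counted 15 higher and 0 lower of 16, matricellular genes 15 and 2 of 20, and matrix proteases and their inhibitors 13 and 3 of 21.

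All 10 genes of a capsular fibroblast list rose (median 6.07), a list that was drawn up with results of these data known. Its sum was 441 CPM at E12.5, 449 at E13.5 and 2208 and 2355 at E16.5. It was 3119 and 2338 CPM at P0 and 5303.5 and 5798 at W4. At E12.5 it lay below the sum of the medullary fibroblast list given below. *Dpp4* (CD26, the protein used to sort capsular fibroblasts) was at 0.175 CPM at E12.5, 2.99 at E13.5, 89.9 and 94.5 at E16.5, 60.4 and 52.7 at P0 and 104.7 and 85.7 at W4 (log2 change 7.13 ± 0.21, adjusted p = 3.18e-13). *Pi16* was at 0.350 CPM at E12.5, 1.37 at E13.5, 43.8 and 54.4 at E16.5, 84.7 and 41.5 at P0 and 669.6 and 762 at W4 (log2 change 6.35 ± 0.39, adjusted p = 1.59e-09). *Dpp4* was thus at a like level at E16.5 and W4 and lower at P0, while *Pi16* was highest at W4. The medullary fibroblast list moved in the same direction, with 7 of 10 genes higher and 0 lower at E16.5 (median 1.54, or 1.64 with members absent from one group set at their bound) and 6 higher and 1 lower at W4. It summed to 493 CPM at E12.5, 348 at E13.5, 1118 and 1073 at E16.5, 1549.7 and 1664 at P0 and 3578 and 3740.5 at W4, and its part in these changes was not tested. Of 14 genes typical of adventitial progenitor fibroblasts, 12 rose and 0 fell, and of 19 lipid genes 12 rose and 2 fell. *Dpp4*, *Pi16*, *Ly6c1*, *Anxa3* and *Cd248* are on both the capsular and the adventitial list. Among the adventitial genes, *Ly6a* (Sca-1) was at 0.350 CPM at E12.5, 0.623 at E13.5, 133 and 162 at E16.5, 244 and 233 at P0 and 1238 and 1371 at W4 (log2 change 8.48 ± 0.23, adjusted p = 1.26e-13), highest at W4. *Lpl* (lipoprotein lipase) was at 7.69 CPM at E12.5, 8.59 at E13.5, 693 and 732 at E16.5, 904 and 1192 at P0 and 2153 and 1829 at W4 (log2 change 6.73 ± 0.17, adjusted p = 6.98e-14). *C1qtnf2*, with *Lama2* the gene most often highest in CapFb1a, was at 2.80 CPM at E12.5, 20.3 at E13.5, 167.5 and 178 at E16.5, 289 and 302 at P0 and 425 and 428 at W4 (log2 change 4.79 ± 0.14, adjusted p = 2.83e-13).

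Among transcription factors of embryonic mesenchyme more fell than rose, 34 and 16 of 62 tested (median -1.04). *Foxd1* (a forkhead factor of embryonic mesenchyme) was at 44.1 CPM at E13.5, still higher at E12.5, and at 0.294 and 0.237 CPM at E16.5, lower by a ratio of 261-fold with a counting interval of 72.3 to 2156. *Tbx1* (a T-box factor of the pharyngeal apparatus) was at 43.2 CPM at E12.5, 8.22 at E13.5, 0.588 and 0.237 at E16.5, 0.868 and 0.769 at P0 and 0.787 and 0.773 at W4, lower by a ratio of 57.8-fold with a counting interval of 19.8 to 280.2. *Eya1* and *Hand1*, both active in the pharyngeal arches, were at 8.92 and 7.22 CPM and at 1.92 and 6.23 CPM early and had no UMI at E16.5, at least 20.1-fold and 11.3-fold lower. In the other direction, *Osr2* and *Meox2* rose by 3.95 and 2.83 on the log2 scale. The adaptor gene *Crkl*, like *Tbx1*, lies in the mouse region syntenic to human 22q11.2, where heterozygous deletions of varying size underlie DiGeorge syndrome. *Crkl* was at 29.4 CPM at E12.5, 25.8 at E13.5, 23.2 and 18.997 at E16.5, 21.7 and 18.5 at P0 and 21.2 and 20.1 at W4. It did not pass the test over all ages (adjusted p = 0.725). Hox genes, which set position along the body axis, counted 10 lower and 0 higher of 12. *Hoxa5* was at 72.0 CPM at E12.5, 21.9 at E13.5, 4.11 and 0.950 at E16.5, 9.55 and 5.0 at P0 and 8.66 and 11.6 at W4 (log2 change -3.76 ± 0.33, adjusted p = 1.34e-07).

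All 7 oncofetal growth genes tested fell at the first step and 5 fell again at W4. *Hmga2* (a chromatin protein of embryonic growth) was at 450.0 CPM at E12.5, 145 at E13.5, 5.29 and 6.17 at E16.5, 1.74 and 4.23 at P0 and 0 and 0.386 at W4 (log2 change -5.18 ± 0.16, adjusted p = 4.40e-13), and from P0 to W4 it was lower by a ratio of 11.8-fold with a counting interval of 2.12 to 466, with 1 UMI left. *Igf2bp1* (an RNA-binding protein of fetal mRNAs) was at 150.6 CPM at E12.5, 94.4 at E13.5, 31.4 and 26.4 at E16.5, 5.21 and 14.6 at P0 and 0 and 0 at W4 (log2 change -1.77 ± 0.19, adjusted p = 1.58e-06), at least 13.1-fold lower at W4, with no UMI, than at P0. Interferon response genes rose at the first step in 23 of 24 cases (median 2.64). *Ifit3*, 1 of them, was at 0 CPM at E12.5, 0.498 at E13.5, 5.58 and 5.94 at E16.5, 7.82 and 11.5 at P0 and 29.1 and 23.6 at W4.

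From E16.5 to P0 fewer genes passed. Of 22 immediate-early genes tested, 16 rose and 0 fell (median 0.98), and without the first or the second E16.5 library 9 and 8 rose. *Egr1* was at 385 CPM at E12.5, 535 at E13.5, 395 and 364 at E16.5, 1367 and 1426 at P0 and 578 and 639 at W4 (log2 change 1.81 ± 0.11, adjusted p = 2.29e-07). *Fos* was at 827 CPM at E12.5, 955 at E13.5, 968 and 1040.5 at E16.5, 3243 and 2625 at P0 and 1419 and 1748 at W4 (log2 change 1.48 ± 0.12, adjusted p = 2.93e-06). *Nr4a1* was at 14.5 CPM at E12.5, 26.8 at E13.5, 18.2 and 26.4 at E16.5, 116 and 83.8 at P0 and 18.1 and 42.5 at W4 (log2 change 2.07 ± 0.25, adjusted p = 1.01e-04). For all 3, transcription factors that cells switch on within minutes of a stimulus, the P0 libraries were the highest of the 8. From P0 to W4, 14 of the list fell and 3 rose, among the latter the heat shock genes *Hspa1a* and *Hspa1b*, near-identical copies whose reads cannot be divided with certainty. *Hspa1a* was at 26.9 CPM at E12.5, 62.7 at E13.5, 61.7 and 41.6 at E16.5, 59.9 and 57.7 at P0 and 718 and 621 at W4 (log2 change 3.58 ± 0.16, adjusted p = 1.45e-10). At the first step the list counted 9 higher and 3 lower, or 6 and 7 with library totals alone. The part of cell preparation in the changes of this list was not tested.

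*Cp* (ceruloplasmin, a copper-carrying ferroxidase) was at 0.175 CPM at E12.5, 0 at E13.5, 13.2 and 11.9 at E16.5, 51.2 and 85.3 at P0 and 205 and 209.7 at W4 and rose at each step, by 2.39 on the log2 scale from E16.5 to P0 (adjusted p = 6.21e-06). *Col2a1* (a cartilage collagen) and *Cxcl10* passed the same rule, and in the first P0 library most of their UMIs lay in few cells. Without that library both kept the call (adjusted p = 0.0438 for each). *Col2a1* was then at 2.31 CPM in the other P0 library, against no UMI at E16.5. The log2 change of *Cxcl10* was then 1.15. *Col2a1* was at 26.9 CPM at E12.5, 3.11 at E13.5, 0 and 0 at E16.5, 358 and 2.31 at P0 and 4.72 and 0 at W4, at least 430.0-fold higher at P0, and lost its call without either E16.5 library (adjusted p = 0.127 and 0.16). *Cxcl10* was at 0.350 CPM at E12.5, 2.24 at E13.5, 13.52 and 9.97 at E16.5, 106 and 26.9 at P0 and 1.57 and 15.1 at W4, with 75.3% of its UMIs in the first P0 library in 5 of 171 cells, and also lost its call without either E16.5 library (adjusted p = 0.111 and 0.195). The 6 genes with the largest rise were completed by 3 predicted genes. *Gm26802* went from 3.23 and 3.32 CPM at E16.5 to 75.6 and 29.2 CPM at P0, *Gm17056* from 4.41 and 3.56 to 66.9 and 40.0 CPM, and *Gm12216* from 15.9 and 13.3 to 97.7 and 84.95 CPM.

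Among the 6 genes with the largest fall at birth, *Cdkn1c* (the imprinted cell cycle inhibitor p57) was at 3606 CPM at E12.5, 3416 at E13.5, 5094 and 5369 at E16.5, 2221 and 1889 at P0 and 353 and 463 at W4 (log2 change -1.42 ± 0.12, adjusted p = 2.93e-06). *Stmn1* (stathmin, a microtubule regulator of dividing cells) was at 843 CPM at E12.5, 812 at E13.5, 149.3 and 140.1 at E16.5, 59.5 and 53.0 at P0 and 18.1 and 11.6 at W4 (log2 change -1.43 ± 0.13, adjusted p = 9.90e-06) and fell at each of the 3 steps. *Stmn2* (its neuronal relative) was at 141 CPM at E12.5, 563 at E13.5, 72.0 and 76.5 at E16.5, 10.9 and 9.99 at P0 and 0 and 2.32 at W4 (log2 change -2.90 ± 0.19, adjusted p = 3.35e-07). The remaining 3 act on lipids or attract lymphocytes. *Fabp5* (a fatty acid carrier) was at 154 CPM at E12.5, 155.4 at E13.5, 444 and 450.0 at E16.5, 129 and 147 at P0 and 36.2 and 27.0 at W4 (log2 change -1.76 ± 0.12, adjusted p = 3.35e-07). *G0s2* (an inhibitor of lipolysis) was at 17.7 CPM at E12.5, 9.59 at E13.5, 212 and 199 at E16.5, 87.3 and 92.3 at P0 and 297 and 283 at W4 (log2 change -1.26 ± 0.10, adjusted p = 2.90e-06). *Cxcl13* (a chemokine for B cells) was at 11.5 CPM at E12.5, 57.05 at E13.5, 231 and 387 at E16.5, 40.8 and 62.3 at P0 and 16.52 and 102 at W4 (log2 change -2.65 ± 0.39, adjusted p = 5.50e-04), with a wide spread between the libraries of E16.5 and of W4.

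From P0 to W4 imprinted genes of fetal growth fell. Of 23 tested, 20 fell and 2 rose (median -2.26, against -0.02 over all genes), whereas 18 had risen and 2 fallen at E16.5 and 2 had risen and 10 fallen from E16.5 to P0. *Dlk1* (a Notch-like ligand of immature mesenchyme) was at 803 CPM at E12.5, 2265 at E13.5, 7089 and 7040.3 at E16.5, 4173 and 4959 at P0 and 17.3 and 12.4 at W4 (log2 change -8.25 ± 0.14, adjusted p = 3.58e-15). Its W4 libraries were lower than all the others, and the 4 libraries of E16.5 and P0 were the highest. *Igf2* (the fetal growth factor) was at 53.3 CPM at E12.5, 80.2 at E13.5, 67.6 and 64.6 at E16.5, 87.7 and 80.3 at P0 and 0 and 0 at W4, at least 107.8-fold lower at W4, where no UMI was found. Its level is uncertain, since genes that overlap it in the annotation can take up its reads, and this was not tested. *Plagl1* (a zinc finger factor of the imprinted network) was at 162 CPM at E12.5, 366 at E13.5, 838 and 803 at E16.5, 653 and 566 at P0 and 11.02 and 20.1 at W4 (log2 change -5.11 ± 0.19, adjusted p = 2.18e-11). *H19* (the non-coding RNA next to *Igf2*) was at 1384 CPM at E12.5, 1837 at E13.5, 2881 and 2912 at E16.5, 2801 and 2924 at P0 and 58.2 and 195 at W4 (log2 change -4.36 ± 0.33, adjusted p = 8.91e-08). Of these 4, *H19* kept the highest level at W4, with the widest spread. *Zim1*, 1 of the genes highest in CapFb1a, was at 17.5 CPM at E12.5, 84.2 at E13.5, 203 and 183 at E16.5, 191.1 and 201 at P0 and 10.2 and 7.34 at W4 (log2 change -4.47 ± 0.17, adjusted p = 2.52e-11). The members that rose were *Dcn* and *Sgce*, and with library totals alone 1 rose.

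Other genes of the fetal cells followed *Dlk1*. *Agtr2* (an angiotensin II receptor of fetal mesenchyme) was at 6.30 CPM at E12.5, 24.2 at E13.5, 555 and 537 at E16.5, 361 and 436 at P0 and 1.57 and 3.48 at W4 (log2 change -7.04 ± 0.22, adjusted p = 5.28e-12). *Cdo1* (cysteine dioxygenase) was at 45.6 CPM at E12.5, 62.5 at E13.5, 554 and 544 at E16.5, 311 and 434 at P0 and 8.66 and 12.4 at W4 (log2 change -5.00 ± 0.21, adjusted p = 8.80e-11). *Capn6* (a calpain without protease activity) was at 73.8 CPM at E12.5, 44.1 at E13.5, 322 and 304 at E16.5, 202 and 239 at P0 and 10.2 and 16.6 at W4 (log2 change -3.87 ± 0.18, adjusted p = 3.06e-10). All 3 were highest at E16.5 and lowest at W4, and *Itm2a* fell with them at W4 (log2 change -2.39 ± 0.08, adjusted p = 1.51e-11). *Kera* (the proteoglycan keratocan) was at 0.874 CPM at E12.5, 2.37 at E13.5, 54.1 and 58.7 at E16.5, 36.9 and 44.2 at P0 and 0 and 0 at W4, at least 52.5-fold lower at W4. *Col11a1* (a fibrillar collagen of cartilage) was at 59.6 CPM at E12.5, 37.99 at E13.5, 32.3 and 35.9 at E16.5, 139.4 and 16.53 at P0 and 2.36 and 1.93 at W4 (log2 change -5.10 ± 0.98, adjusted p = 9.60e-04), with the first P0 library far above the second, and without the second W4 library it missed the threshold (adjusted p = 0.0514).

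The 6 named genes with the largest rise were above 5 CPM only in the W4 libraries. *Cpxm2* (a carboxypeptidase-like secreted protein) was at 0 CPM at E12.5, 0 at E13.5, 0 and 0 at E16.5, 3.04 and 0.769 at P0 and 791 and 657 at W4 (log2 change 8.66 ± 0.24, adjusted p = 4.36e-12). *C7* (a complement component) was at 0 CPM at E12.5, 0.249 at E13.5, 0 and 0 at E16.5, 0.434 and 0 at P0 and 56.7 and 49.1 at W4, a ratio of 253-fold with a counting interval of 45.4 to 9988 from 1 UMI at P0. *Gsta3* (a glutathione transferase) was at 0.350 CPM at E12.5, 0.374 at E13.5, 0.294 and 1.42 at E16.5, 0 and 0.769 at P0 and 62.2 and 54.1 at W4, a ratio of 139.1-fold with a counting interval of 38.5 to 1149 from 2 UMIs at P0. These genes belong to matrix, complement and detoxification, and 3 more behaved alike. *Inmt* (an amine methyltransferase) was at 0 CPM at E12.5, 3.36 at E13.5, 0.882 and 2.85 at E16.5, 4.34 and 1.15 at P0 and 240.0 and 269 at W4 (log2 change 6.65 ± 0.27, adjusted p = 5.85e-11). *Hmcn2* (the matrix protein hemicentin 2) was at 0 CPM at E12.5, 0 at E13.5, 0 and 0 at E16.5, 1.74 and 0 at P0 and 111 and 82.7 at W4 and *Itgbl1* (an integrin beta-like secreted protein) at 2.17 and 0.384 CPM at P0 and 92.9 and 82.3 CPM at W4, with no UMI earlier. Of the markers, *Clec3b* (log2 change 1.62 ± 0.10, adjusted p = 1.30e-08), *Svep1* (log2 change 2.71 ± 0.11, adjusted p = 6.44e-11) and *Dpep1* (log2 change 2.73 ± 0.14, adjusted p = 1.45e-09) rose as well.

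Defence genes rose at the same step. Of 16 MHC class I and antigen processing genes 15 rose and 0 fell at W4 (median 1.94). *H2-K1* was at 0.700 CPM at E12.5, 0.374 at E13.5, 9.99 and 11.9 at E16.5, 48.6 and 26.1 at P0 and 438 and 510.2 at W4 (log2 change 3.76 ± 0.19, adjusted p = 7.26e-10). *H2-D1* was at 1.92 CPM at E12.5, 2.62 at E13.5, 17.3 and 18.05 at E16.5, 93.4 and 82.6 at P0 and 774 and 723 at W4 (log2 change 3.16 ± 0.12, adjusted p = 2.18e-11). The members of this family share sequence, and their reads may be divided unevenly. Of 14 complement genes 11 rose and 0 fell (median 2.07). The complement list summed to 1152 and 1207 CPM at P0 and 6548 and 6623.5 at W4 in CapFb1a. CapFb1b went from 1030 and 1027 to 5754 and 6114 CPM, and CapFb1c from 1420 and 1482 to 6849 and 7070. The rise was thus found in CapFb1b and CapFb1c too, as was that of the MHC class I list. *C3* was at 0 CPM at E12.5, 0.125 at E13.5, 11.5 and 13.54 at E16.5, 48.6 and 46.9 at P0 and 2217 and 2421 at W4 (log2 change 5.68 ± 0.14, adjusted p = 2.09e-13). *Smoc2* went from 264 and 193 CPM at P0 to 2383 and 1990.4 CPM at W4 (log2 change 3.33 ± 0.14, adjusted p = 1.31e-10). *Igfbp6* (which binds IGF2) went from 102 and 78.03 CPM to 1403 and 1513 CPM (log2 change 4.09 ± 0.14, adjusted p = 1.75e-11). Genes of the translation machinery fell in 17 of 20 cases, by less (median -0.53), as did *Rplp0* (a ribosomal protein), which was at 3312 CPM at E12.5, 3486 at E13.5, 4704 and 4855 at E16.5, 4150.2 and 4674 at P0 and 2437 and 2642 at W4 (log2 change -0.72 ± 0.08, adjusted p = 9.92e-06).

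**Figure D4:**
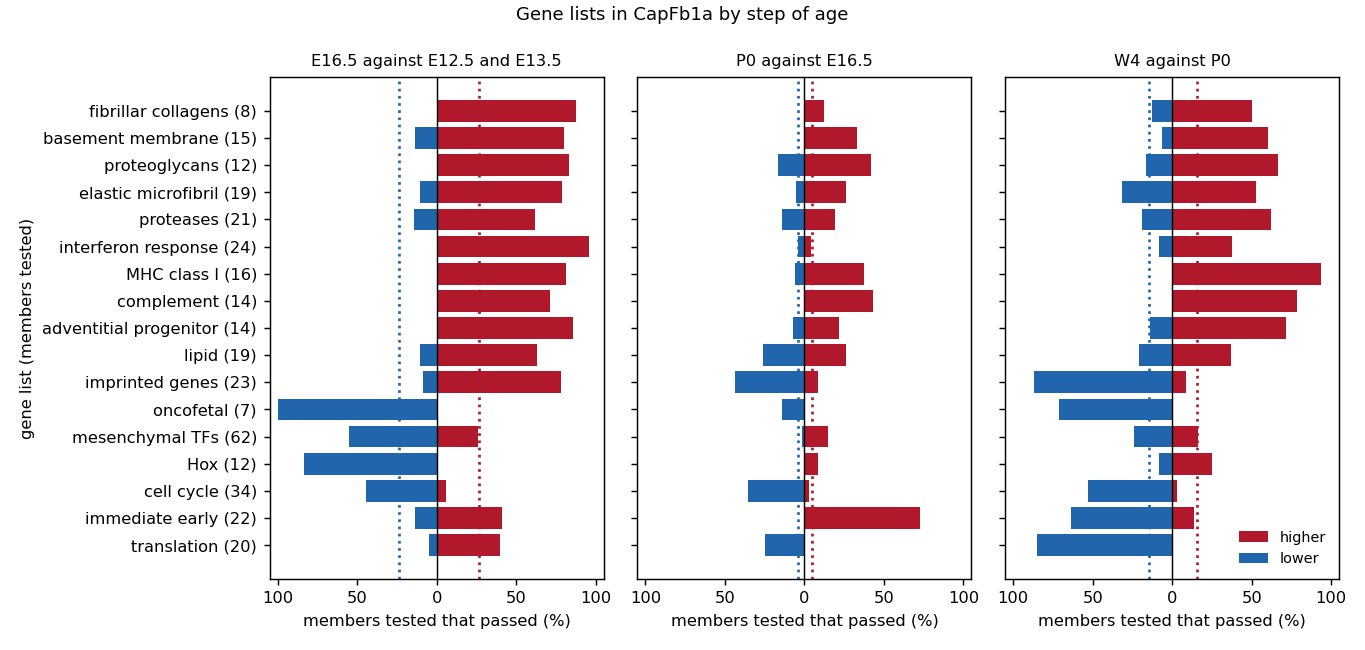
Share of the tested members of 17 gene lists (percent, number tested in brackets) that were higher (red, to the right) or lower (blue, to the left) in CapFb1a at each step of age; dotted lines mark the share of all genes tested. Matrix lists exceed the dotted line to the right at E16.5, immediate-early genes at P0, and imprinted, oncofetal and translation lists exceed it to the left at W4.

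Genes of signalling pathways were read by their roles. Of 16 genes of the FGF pathway 12 rose and 1 fell at E16.5. The ligand *Fgf10* (a growth factor for thymic epithelium) was at 8.04 CPM at E12.5, 53.6 at E13.5, 147.5 and 138 at E16.5, 123.8 and 128 at P0 and 97.6 and 112.4 at W4 (log2 change 3.06 ± 0.12, adjusted p = 8.40e-12) and did not pass the test at the 2 later steps. The ligand *Fgf7* was at 1.05 CPM at E12.5, 8.10 at E13.5, 57.02 and 56.8 at E16.5, 55.1 and 33.8 at P0 and 48.0 and 63.3 at W4 (log2 change 4.54 ± 0.26, adjusted p = 7.75e-10) and did not pass it either. From E16.5 on, *Fgf10* lay between 97.6 and 147.5 CPM and *Fgf7* between 33.8 and 63.3 CPM. Among BMP genes 6 rose and 7 fell of 18 at E16.5. The ligand *Bmp4* was at 97.2 CPM at E12.5, 113.3 at E13.5, 99.3 and 95.5 at E16.5, 106 and 92.3 at P0 and 259.7 and 240.2 at W4 and passed the test only from P0 to W4 (log2 change 1.41 ± 0.11, adjusted p = 9.30e-08). The antagonist *Fst* (follistatin) was at 3.50 CPM at E12.5, 8.47 at E13.5, 17.9 and 13.8 at E16.5, 104.6 and 67.7 at P0 and 126.7 and 130.2 at W4 and rose at each step, the most from E16.5 to P0 (log2 change 2.38 ± 0.20, adjusted p = 2.97e-06). The BMP targets *Id1* and *Id2* fell at E16.5, by -2.57 and -3.29 on the log2 scale.

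Wnt genes counted 6 higher and 9 lower of 24 at E16.5, then 9 and 0 at P0 and 8 and 4 at W4. The antagonist *Sfrp1* was at 269 CPM at E12.5, 499 at E13.5, 203 and 199.7 at E16.5, 344 and 256 at P0 and 615 and 758 at W4 (log2 change 1.27 ± 0.14, adjusted p = 7.30e-06). The ligand *Wnt2* was at 2.62 CPM at E12.5, 10.2 at E13.5, 2.06 and 2.37 at E16.5, 7.38 and 3.46 at P0 and 41.7 and 69.1 at W4 (log2 change 3.51 ± 0.33, adjusted p = 8.21e-07). Both were highest in the W4 libraries. *Wif1* (another antagonist) was found after E13.5 only in the first P0 library, at 42.6 CPM, on which its call at P0 rested. TGF-beta genes counted 3 higher and 6 lower of 13 at E16.5, then 5 and 0 at P0 and 7 and 2 at W4. *Tgfbi* fell at the first step and rose at both later ones, at 299 CPM at E12.5, 30.9 at E13.5, 5.0 and 2.85 at E16.5, 55.6 and 21.1 at P0 and 178 and 149.9 at W4. Retinoic acid genes counted 2 higher and 7 lower of 14 at E16.5. The binding protein *Crabp2* was at 200.4 CPM at E12.5, 90.7 at E13.5, 1.47 and 0.712 at E16.5, 0.868 and 0.384 at P0 and 0 and 0.386 at W4 (log2 change -6.68 ± 0.24, adjusted p = 3.19e-12). The enzyme *Aldh1a1*, which makes retinoic acid, was at 0 CPM at E12.5, 0 at E13.5, 15.6 and 18.5 at E16.5, 36.0 and 37.3 at P0 and 206 and 164 at W4, at least 78.8-fold higher at E16.5.

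Of 24 genes for cytokines, chemokines, growth factors, receptors and adhesion molecules, not all of which act on lymphocytes, 17 rose and 2 fell at E16.5. *Il33* (an alarmin) was at 1.92 CPM at E12.5, 6.10 at E13.5, 107.6 and 130.4 at E16.5, 158.5 and 133 at P0 and 142 and 162 at W4 (log2 change 5.39 ± 0.18, adjusted p = 1.26e-12). *Flt3l* (the ligand of the progenitor receptor FLT3) was at 0.350 CPM at E12.5, 0.498 at E13.5, 3.23 and 4.51 at E16.5, 4.78 and 6.15 at P0 and 44.1 and 48.3 at W4 (log2 change 3.15 ± 0.28, adjusted p = 5.08e-07 from P0 to W4). The chemokine *Cxcl14* was at 7.34 CPM at E12.5, 0.249 at E13.5, 0.882 and 0.237 at E16.5, 6.08 and 3.08 at P0 and 149.5 and 117 at W4 (log2 change 4.93 ± 0.25, adjusted p = 1.06e-09). *Il33*, which is also on the medullary fibroblast list, thus came up at E16.5, and the other two were highest at W4.

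In the cells labelled CapFb1a, more cell cycle genes fell than rose at each step. Of 34 tested, 15 fell and 2 rose at E16.5, 12 fell and 1 rose at P0 (2 and 3 fell without the first or the second E16.5 library), and 18 fell and 1 rose at W4. The list summed to 5708 CPM at E12.5, 5092 at E13.5, 2377 and 2296 at E16.5, 2102 and 1886 at P0 and 1185 and 1266 at W4 in CapFb1a. In CapFb1b it summed to 5329 CPM at E12.5, 4789.7 at E13.5, 2124 and 2082 at E16.5, 2184 and 2025 at P0 and 1338 and 1248 at W4. In CapFb1c it summed to 4464 CPM at E12.5, 4941 at E13.5, 2328 and 2289.5 at E16.5, 1822 and 1804 at P0 and 1137 and 1187 at W4. CapFb1a was highest of the 3 in the 4 embryonic libraries and in the second W4 library, and CapFb1b in the other 3, by small margins. *Cdk1* (the kinase that starts mitosis) was 1 of the 2 that rose at E16.5. It was at 16.4 CPM at E12.5, 24.7 at E13.5, 47.0 and 42.5 at E16.5, 24.3 and 29.98 at P0 and 2.36 and 3.09 at W4. It rose at E16.5 (log2 change 1.43 ± 0.15, adjusted p = 9.04e-07). It fell at P0 (log2 change -0.78 ± 0.16, adjusted p = 0.00857) and at W4 (log2 change -3.17 ± 0.32, adjusted p = 1.85e-06). CapFb1a cells with a UMI of the mitotic genes *Mki67* or *Top2a* made up 22.2% at E12.5, 27.3 at E13.5, 24.1 and 21.2 at E16.5, 17.0 and 15.5 at P0 and 5.68 and 5.68 at W4. After thinning each cell to 2000 UMIs they made up 5.91% at E12.5, 6.59 at E13.5, 5.65 and 3.31 at E16.5, 2.35 and 3.40 at P0 and 0 and 0 at W4. Before thinning the E16.5 libraries lay close to those of E12.5 and E13.5. The W4 libraries were lowest on both scales. Their counts of 0 allow up to 3.41 and 1.70% on the thinned scale only, and do not limit the share at full depth, which was 5.68%. The annotation holds proliferating fibroblasts under a separate label, Pr, and the study places some of them on trajectories into CapFb1a. Pr made up 18.7% of NETS cells at E12.5, 23.1 at E13.5, 14.08 and 14.65 at E16.5 and 1.13 and 0.887 at W4. Its cell cycle list averaged 13724 CPM over the libraries, against 2739 in CapFb1a. The values above thus describe cells labelled CapFb1a only, and the part of the label Pr in these changes was not tested.

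Whether the age course itself differed between the subtypes was tested with a subtype by age term on sums from the same libraries. It differed between CapFb1a and CapFb1b for 1011 of 13085 genes (7.73 percent) and between CapFb1a and CapFb1c for 591 of 13139 (4.50 percent). The labels were made from these same counts, so the p-values describe the labels as drawn and are not independent support for a difference. When the library was not kept as a block, 26.01 and 18.95% as many genes passed, and CapFb1c had 10 cells at E12.5. Of the 22 immediate-early genes, 20 differed in course against CapFb1b and 18 against CapFb1c. *Jun* in CapFb1a was at 1562 CPM at E12.5, 2186 at E13.5, 1052 and 951 at E16.5, 3033 and 2338 at P0 and 1468 and 1488 at W4. In CapFb1b it was at 3010.2 CPM at E12.5, 4321 at E13.5, 3292 and 3514 at E16.5, 6883 and 4937 at P0 and 3966 and 4102 at W4 (adjusted p = 3.21e-13). In CapFb1c it was at 1689 CPM at E12.5, 2391 at E13.5, 1868 and 2201 at E16.5, 6623 and 4767 at P0 and 4254 and 4271 at W4 (adjusted p = 1.29e-13). *Jun* was lowest in CapFb1a in all 8 libraries and nearest to CapFb1c at E12.5 and E13.5. It was furthest from CapFb1c at W4 by ratio and in the first P0 library by difference in CPM.

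*Ly6a* and *Dpt* were higher in CapFb1a than in CapFb1b in every library from E16.5 on. *Ly6a* in CapFb1b was at 0 CPM at E12.5, 0.520 at E13.5, 14.8 and 12.45 at E16.5, 31.4 and 23.95 at P0 and 828 and 947 at W4 (adjusted p = 1.36e-17), so that it was well below CapFb1a at E16.5 and P0 and closer at W4. *Dpt* in CapFb1b was at 0 CPM at E12.5, 0.520 at E13.5, 7.94 and 9.0 at E16.5, 14.7 and 9.89 at P0 and 638 and 697 at W4 (adjusted p = 2.96e-15). *Stmn2* in CapFb1b was at 204 CPM at E12.5, 485 at E13.5, 2.78 and 3.0 at E16.5, 1.42 and 2.62 at P0 and 0 and 0 at W4 (adjusted p = 1.45e-18). It was near 0 in CapFb1b at E16.5, when CapFb1a still held it. *Mfap4* (a microfibril protein) in CapFb1a was at 527 CPM at E12.5, 335 at E13.5, 527 and 540.5 at E16.5, 999.5 and 257 at P0 and 178.6 and 324 at W4. In CapFb1b it was at 428 CPM at E12.5, 249.8 at E13.5, 53.8 and 63.1 at E16.5, 96.5 and 31.6 at P0 and 39.3 and 74.1 at W4 (adjusted p = 1.60e-18). *Col3a1* in CapFb1b was at 984 CPM at E12.5, 2934 at E13.5, 5399 and 5437 at E16.5, 7150.2 and 6025 at P0 and 9617 and 10024 at W4 (adjusted p = 8.35e-17), close to CapFb1a early and below it from E16.5 on. These genes were picked from the comparison with CapFb1b alone. Over the 8 libraries the capsular fibroblast list averaged 2751 CPM in CapFb1a, 1264 in CapFb1b and 2788 in CapFb1c. The fibrillar collagens averaged 20470, 13287 and 19257 CPM in the same order, so on both lists CapFb1b was the low label. The labels were made from the same counts, and their part in the differences in age course was not tested.

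Against CapFb1c several of the differences lay in the earliest libraries. *Dcn* in CapFb1c was at 195 CPM at E12.5, 2039.9 at E13.5, 5958 and 6106 at E16.5, 8238 and 6933 at P0 and 20810.0 and 20325 at W4 (adjusted p = 1.64e-16), above CapFb1a in all 8 libraries and most so at E12.5 and E13.5. *Col1a1* in CapFb1c was at 148.5 CPM at E12.5, 1835 at E13.5, 4884 and 4807 at E16.5, 5982 and 4414 at P0 and 5679.9 and 6133 at W4 (adjusted p = 3.14e-15), below CapFb1a at E12.5 and close to it from E13.5 on. *Malat1* (a nuclear RNA) was at 15959 CPM in CapFb1a and 36349 CPM in CapFb1c at E12.5 (adjusted p = 8.73e-14), and it lost its call when labels with under 20 cells were left out (adjusted p = 0.297). *Ptx3* (pentraxin 3, an acute-phase protein) in CapFb1a was at 124.2 CPM at E12.5, 32.8 at E13.5, 7.35 and 4.99 at E16.5, 0.434 and 2.31 at P0 and 0.787 and 5.79 at W4. In CapFb1c it was at 37.1 CPM at E12.5, 94.8 at E13.5, 21.9 and 31.8 at E16.5, 126 and 233 at P0 and 18.9 and 44.1 at W4 (adjusted p = 3.27e-12), so that CapFb1a was the higher at E12.5 and the lower in the 7 other libraries. *Sparc* (an abundant matricellular protein) in CapFb1a was at 978 CPM at E12.5, 1565 at E13.5, 4591 and 4857 at E16.5, 5793 and 4871 at P0 and 14407 and 14534 at W4. In CapFb1c it was at 993 CPM at E12.5, 2034 at E13.5, 5356 and 5572 at E16.5, 6881 and 5996 at P0 and 11714 and 12925 at W4 (adjusted p = 9.77e-12).

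The bulk libraries of gp38+CD26- cells, the fibroblasts sorted without CD26, gave the step from P0 to W4 in separately sorted cells. By the study's account this gate holds mainly medullary fibroblasts beside CapFb1 cells, and the gp38+CD26+ gate holds the capsular subtypes. *Dpp4*, which encodes CD26, had UMIs in 43.9 and 35.0% of CapFb1a cells at P0 and in 60.2 and 47.7% at W4, and which gate these cells fell into was not measured. The values are thus those of mixtures, in which fewer cells of a type and less RNA per cell cannot be told apart. From P0 to W4, 1579 of 12279 genes rose (12.9 percent) and 1408 fell (11.5 percent). *Itm2a* was at 6224 ± 1033 CPM at P0 and 391 ± 114 at W4 (SD, n = 6 each, log2 change -3.86 ± 0.19, adjusted p = 8.77e-09), with ranges of 4747 to 7522 and 295 to 607. *Clec3b* was at 20.8 ± 8.66 CPM at P0 and 93.3 ± 9.27 at W4 (log2 change 2.32 ± 0.26, adjusted p = 1.94e-05). The groups of neither gene overlapped, and the directions were those of CapFb1a. *Svep1* was at 38.7 ± 10.499 CPM at P0 and 44.9 ± 9.48 at W4 (log2 change 0.35 ± 0.22, adjusted p = 0.28) and *Dpep1* at 308 ± 102 CPM at P0 and 272 ± 115.1 at W4 (log2 change -0.03 ± 0.29, adjusted p = 0.955), and neither passed the test.

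Of 20 imprinted genes tested in the bulk libraries, 16 fell and 2 rose. *Dlk1* was at 2242 ± 219 CPM at P0 and 4.24 ± 3.65 at W4 (log2 change -8.89 ± 0.67, adjusted p = 4.97e-07). *Igf2* was at 546 ± 179.2 CPM at P0 and 6.69 ± 1.89 at W4 (log2 change -6.21 ± 0.29, adjusted p = 7.23e-09). *Agtr2* was at 551 ± 71.4 CPM at P0 and 0.418 ± 1.02 at W4 (log2 change -9.99 ± 0.83, adjusted p = 1.18e-06). These genes were abundant at P0 and nearly absent at W4, as were *Capn6*, at 1021 ± 215 CPM at P0 and 11.5 ± 8.82 at W4 (log2 change -6.36 ± 0.49, adjusted p = 5.90e-07), and *Cdo1*, at 302 ± 60.97 CPM at P0 and 6.16 ± 4.14 at W4 (log2 change -5.50 ± 0.45, adjusted p = 9.64e-07). Among genes that rose, *Cpxm2* was at 0.868 ± 2.127 CPM at P0 and 41.4 ± 23.3 at W4 (log2 change 5.77 ± 1.28, adjusted p = 0.00425). *C7* was at 2.19 ± 2.68 CPM at P0 and 237 ± 167.3 at W4 (log2 change 6.93 ± 0.99, adjusted p = 1.46e-04) and *C3* at 111 ± 106 CPM at P0 and 2665 ± 594 at W4 (log2 change 4.72 ± 0.48, adjusted p = 7.26e-06). *Smoc2* was at 45.3 ± 16.7 CPM at P0 and 288 ± 68.4 at W4 (log2 change 2.79 ± 0.26, adjusted p = 4.03e-06). All 16 MHC class I genes tested rose, among them *H2-K1*, at 48.2 ± 13.7 CPM at P0 and 1288 ± 131.7 at W4 (log2 change 4.88 ± 0.19, adjusted p = 1.02e-09). Of the 8 fibrillar collagens 6 fell and 1 rose in bulk. *Col1a1* was at 16910.0 ± 3937 CPM at P0 and 8872 ± 1009 at W4 (log2 change -0.80 ± 0.15, adjusted p = 0.00108) and *Col3a1* at 9513 ± 825 CPM at P0 and 6318 ± 1112 at W4 (log2 change -0.46 ± 0.11, adjusted p = 0.00864), while in CapFb1a both rose from P0 to W4 (log2 change 0.49 and 0.64). The difference between the single-cell and the bulk data was not tested.

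The bulk gp38+CD26+ libraries, added after the data were seen, gave the same step in 6 libraries at P0 and 5 at W4, after 1 W4 library with 25702 reads in genes was left out. From P0 to W4, 904 of 12433 genes rose (7.27 percent) and 737 fell (5.93 percent), and 864 genes in all passed with that library kept. *Itm2a* was at 18046 ± 1513 CPM at P0 and 1072 ± 181 at W4 (log2 change -3.98 ± 0.15, adjusted p = 1.21e-08), lower at W4 as in the other gate and in CapFb1a. *Clec3b* was at 111 ± 53.9 CPM at P0 and 356 ± 43.3 at W4 (log2 change 1.80 ± 0.40, adjusted p = 0.0104) and *Svep1* at 88.0 ± 19.4 CPM at P0 and 142.8 ± 34.8 at W4 (log2 change 0.80 ± 0.22, adjusted p = 0.0286), and both lost the call with the library of low depth (adjusted p = 0.0819 and 0.3). *Dpep1* was at 622 ± 127.5 CPM at P0 and 848 ± 340.2 at W4 and did not pass (log2 change 0.55 ± 0.24, adjusted p = 0.163). All 10 genes of the capsular fibroblast list rose, among them *Pi16*, at 331 ± 109 CPM at P0 and 10632 ± 3016 at W4 (log2 change 5.11 ± 0.28, adjusted p = 3.89e-07), and *Dpp4*, at 287 ± 135.6 CPM at P0 and 811 ± 233 at W4 (log2 change 1.59 ± 0.33, adjusted p = 0.00663). In the gp38+CD26- libraries 3 of these 10 rose and 2 fell. Of 14 adventitial genes 12 rose and 1 fell, or 7 and 1 with the library of low depth, against 5 and 2 of 13 in the gp38+CD26- libraries. With the library of low depth 3 of the 10 capsular genes rose, and *Dpp4* was not among them (adjusted p = 0.138). Of 22 imprinted genes 16 fell and 1 rose, against 13 and 0 of 20 with that library. *Dlk1* was at 2458 ± 451 CPM at P0 and 4.35 ± 6.92 at W4 (log2 change -9.03 ± 1.19, adjusted p = 2.94e-04). *Agtr2* was at 873 ± 281 CPM at P0 and 7.87 ± 5.84 at W4 (log2 change -6.70 ± 0.83, adjusted p = 1.91e-04). Both were nearly absent at W4 here too. *C7* was at 4.32 ± 2.72 CPM at P0 and 2338 ± 1475 at W4 (log2 change 9.20 ± 0.60, adjusted p = 1.24e-06) and *Smoc2* at 413 ± 41.7 CPM at P0 and 1428 ± 278 at W4 (log2 change 1.89 ± 0.15, adjusted p = 7.15e-06), of which *Smoc2* lost the call with the library of low depth (adjusted p = 0.0688). *Col1a1* was at 28239 ± 11353 CPM at P0 and 23502 ± 2729 at W4 (log2 change -0.16 ± 0.31, adjusted p = 0.814). *Col3a1* was at 13558 ± 3306 CPM at P0 and 13538 ± 1117 at W4 (log2 change 0.10 ± 0.18, adjusted p = 0.783). Neither passed the test.

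The remaining lists of other cell types summed to far less than the pan-fibroblast list. The thymocyte list summed to 4.72 CPM at E12.5, 3.61 at E13.5, 22.9 and 25.2 at E16.5, 38.6 and 24.2 at P0 and 109 and 47.9 at W4. Of its 7 genes tested 6 rose at E16.5, the step at which the capsular genes came up, and the part of thymocyte RNA in the other changes was not tested. The myeloid list summed to 3.82 to 32.3 CPM over the 8 libraries, the thymic epithelial list to 5.38 to 29.0 CPM, the neural crest list to 8.31 to 32.7 CPM and the mural list of smooth muscle and pericytes to 126 to 362 CPM, lowest at W4.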

How the data were processed

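Single-cell libraries of the age series were made with the Chromium Single Cell 3′ chemistry. The deposited counts are whole UMI counts per gene and cell, made by the authors with Cell Ranger 3.1.0. The authors then set limits of 1000 genes (least) and 5% mitochondrial reads (most) per cell, took out doublets (DoubletFinder) and contaminating clusters, and labelled cells by integration, clustering at resolution 0.8 and label transfer in Seurat. The deposited bulk counts are reads per gene of low-input RNA-seq, and the submitters' processing notes also list STAR 2.5.3a, HTSeq and the builds mm10 and GRCh38. Among the bulk reads of gp38+CD26- cells 9.25 to 13.9% lay in no gene and were left out, and 10004254 to 15560221 reads per library in genes were used. In gp38+CD26+ cells 8454267 to 14645628 were used, and 1 W4 library with 25702 was left out, under a minimum of 1000000. Of the 84 bulk columns, 60 hold other sorted populations and were not used here, nor were newborn Tbx1+/-Crkl+/- cells.

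UMIs were summed over the cells of a label in a library (at least 10 cells), so that libraries are the replicates. Sums were tested with edgeR 4.0.16 (filterByExpr, TMM, quasi-likelihood F-test, Benjamini-Hochberg threshold 0.05) in R 4.3.3 with limma 3.58.1, with the ages as groups and, for age courses between labels, with the library as a block. Shares of cells were tested with the same tool on cells per label. Bulk libraries were compared in the same way between P0 and W4. At each age and gate they fall into 2 sets of 3 by title prefix (TXCK and DFCK), which the sources used here do not explain. Alternatives were DESeq2 1.42.0, other scalings, no filter on low counts, cells thinned to 2000 UMIs, at least 20 cells per label, the replicate number as a block, the title prefix as a block (bulk gp38+CD26- libraries), no library block and leaving out each library, and library totals without TMM and the gp38+CD26+ libraries were added after the data were seen. Tables and plots were made with Python 3.11.15, numpy 2.4.6, pandas 2.3.3, scipy 1.17.1 and matplotlib 3.10.9. The tests of ages and of age courses were also run on simulated counts. These had the same spread for all genes and ages and no library effect shared by the labels. They thus do not show how the tests behave where the data depart from that.

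The members and the 51 gene lists (791 entries, of which 789 were found in the table after older symbols were matched through the RefSeq gene table) were chosen with earlier results of these data known. Named genes were, per step and direction, the 6 with the largest fold change past the threshold among genes of at least 50 CPM with libraries that did not overlap, up to 4 members per list, the 6 smallest p-values per age course, the 8 highest and lowest ratios to CapFb1b and CapFb1c, the 10 most often highest of all labels, the markers and the genes the study names for CapFb1. *Fos*, *H19*, *Meox2*, *Osr2* and *Sgce* fall outside this rule and were chosen after their values were seen. Intervals and limits for a count of 0 cover counting error only.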

Additional observations from a re-analysis of the deposited data

Results flagged for a closer look

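For 12 results the age course of a gene differed between CapFb1a and another CapFb1 subtype by the subtype by age term of edgeR's quasi-likelihood test. Against CapFb1b the adjusted p was 2.49e-21 for *Dcn*, which was at 88.1 CPM in CapFb1a and 15.6 CPM in CapFb1b at E12.5, 1.45e-18 for *Stmn2*, 1.60e-18 for *Mfap4*, 1.36e-17 for *Ly6a*, 8.35e-17 for *Col3a1* and 2.96e-15 for *Dpt*. Against CapFb1c it was 1.64e-16 for *Dcn*, 3.14e-15 for *Col1a1*, 8.73e-14 for *Malat1*, 1.29e-13 for *Jun*, 3.27e-12 for *Ptx3* and 9.77e-12 for *Sparc*. All 12 were chosen for their small p-values, the labels were made from the same counts and CapFb1c had 10 cells at E12.5, and the part of these in the differences was not tested.

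In the bulk gp38+CD26- libraries, 1 of 6 W4 libraries was at 607 CPM of *Itm2a*, far from the other 5 at 295 to 398 CPM. A gap of this kind is met in about 1 in 20 groups by chance. The P0 libraries were at 4747 to 7522 CPM.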

How the results depend on the processing

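Counts of genes under an alternative are given as percents of those above. With DESeq2 and with cells thinned to 2000 UMIs, the genes that changed over the ages came to 62.6 and 51.0%, those of the first step to 57.4 and 47.4%, those from E16.5 to P0 to 39.0 and 31.7% and those from P0 to W4 to 54.1 and 33.7%. Without 1 library they came to 83.1 to 110.7%, 65.4 to 113.1%, 14.6 to 121.9% and 61.6 to 95.1%, lowest when a library of the ages compared was left out, so that an age rested on a lone library assumed to vary like the others. Age courses that differed from CapFb1b came to 29.3% in thinned cells, 26.01% with no library block and 74.8 to 110.8% without 1 library. Against CapFb1c they came to 37.6% in thinned cells, 169.0% with no filter on low counts, 18.95% with no library block and 74.3 to 133.0% without 1 library. Thinned cells hold fewer UMIs, and otherwise the cause was not tested. Bulk calls came to 99.9% with the title prefix as a block, stayed at 87.7 to 99.4% without 1 library and came to 54.9% in gp38+CD26+ cells, or 28.9% with the library of low depth kept.

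The share of CapFb1a moved by -1.99 to -1.90 on the log2 scale at the first step, by -0.34 to -0.25 at the second and by -0.08 to 0.57 at the third when 1 library was left out, and with CapFb1 cells as the total it passed the test at the later steps, at -0.376 and 0.897. That fit held only the CapFb1 labels, which sum to the total and so do not vary independently. Replicate numbers were taken as names, since deviations of libraries with the same number correlated at 0.00239, -0.0472 and 0.00517 between ages. With a replicate block the genes that changed came to 90.9% over the ages and 87.0, 95.2 and 97.3% at the steps, and the share moved by -2.06 at the first step.

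The 36 genes named for the steps had been picked for large changes past the threshold in the tests above. That they keep their calls is thus partly built in and says little about other genes. Of 526 values of 36 named genes at the steps under these alternatives 517 kept direction and call, 9 lost the call and 0 reversed. The 9 were of *Otor*, *Cxcl13* and *Hmcn2* (DESeq2), *Hbb-bt*, *Col2a1* and *Cxcl10* (without an E16.5 library) and *Col11a1* (without a W4 library), and DESeq2 gave no adjusted p for *Gm17056* and *Cxcl10*. Of the named genes of the age courses, *Mfap4*, *Malat1* and *Sparc* lost the call with no library block, *Malat1* also in thinned cells and with at least 20 cells. With library totals in place of TMM, IGF axis genes at the first step went from 7 higher and 6 lower to 5 and 6, translation genes from 8 and 1 to 4 and 5, and retinoic acid genes at W4 from 4 and 3 to 3 and 4. CapFb1a moved to rank 2 of the labels by *Itm2a* without the first P0 library, to 2 by *Dpep1* without the second W4 library and to 4 by *Clec3b* with at least 20 cells, and by the share of cells with a UMI after thinning, over cells pooled from all ages, of which labels hold unlike mixes, to 6 by *Itm2a*, 7 by *Clec3b* and 4 by *Svep1* and *Dpep1*. The 10 cells of CapFb1c at E12.5, the single libraries of E12.5 and E13.5 and the 88 CapFb1a cells of the first W4 library limit the precision.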
